A study of Mus musculus with 12 samples.

Results

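The genes described here are the cyclins, kinases and inhibitors that act in G1, the phase of the cell cycle before DNA synthesis: Ccnd1, Ccnd2, Ccnd3, Cdk4, Cdk6, Ccne1, Ccne2, Cdk2, Cdkn1b and Cdkn2a. They were taken by name from a table of 26219 genes, and all 10 were present. Their transcripts were measured in 12 mouse libraries from 6 lines, with 2 cultures of each line. GSCLC lines are germline stem cell-like cells grown out of reconstituted testes. GSCLC_1 and GSCLC_4 came from testes held at 34°C for 3 weeks, called condition 1 by the submitters. GSCLC_2 and GSCLC_3 came from testes held at 37°C for 2 weeks and at 34°C for 1 more week, called condition 2. GSC_1 and GSC_2 are germline stem cells, the cultured form of spermatogonial stem cells, each from its own testis at postnatal day 7. All 6 lines were on the C57BL/6 x 129/SvJcl background, carried the AcrAct_EGFP reporter and grew in StemPro-34 medium with little FBS, GDNF, bFGF, LIF and EGF. The kind of line coincides with its origin in a reconstituted or a postnatal testis, and their effects cannot be told apart.

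D-type cyclins (Ccnd1, Ccnd2, Ccnd3) bind the kinases CDK4 and CDK6, and the complexes begin the phosphorylation of the retinoblastoma protein that frees E2F transcription factors. E-type cyclins (Ccne1, Ccne2) then activate CDK2, which completes that step and starts DNA synthesis. Cdkn1b encodes p27Kip1, an inhibitor of cyclin E-CDK2, and Cdkn2a encodes p16Ink4a, an inhibitor of CDK4 and CDK6, as well as p19Arf, which stabilises p53. In the mouse testis cyclin D2 is known from spermatogonia, and p27Kip1 is known from Sertoli cells that have left the cell cycle.

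Cdk6 and Cdkn1b are the kinase and the inhibitor that were higher in GSCLC lines, and Cdk4 is the other kinase of D cyclins, whose level did not pass a test, so the bases that precede a RefSeq start of each gene are shown together. They were copied from the RefSeq promoter table of GRCm38.p6, which held 7 of the 10 genes and not Ccnd1, Ccnd2 or Ccne2. The runs are the plus strand of chr10:127063285-127063533 (Cdk4), chr5:3343643-3343731 (Cdk6) and chr6:134920151-134920400 (Cdkn1b), 5′ to 3′, and stop before the next exon of the gene in the GENCODE annotation. The Cdk6 run precedes a start within the span that RefSeq gives the gene, which begins upstream of it at 3341004. Capitals mark the E box CACGTG, which reads alike on both strands, and the GC box GGGCGG on either strand.
Cdk4: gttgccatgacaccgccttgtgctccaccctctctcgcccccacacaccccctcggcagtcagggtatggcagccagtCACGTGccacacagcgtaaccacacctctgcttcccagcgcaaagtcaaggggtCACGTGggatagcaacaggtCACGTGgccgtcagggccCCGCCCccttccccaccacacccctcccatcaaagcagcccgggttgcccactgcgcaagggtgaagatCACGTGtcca
Cdk6: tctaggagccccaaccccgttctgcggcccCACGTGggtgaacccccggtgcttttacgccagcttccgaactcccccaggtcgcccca
Cdkn1b: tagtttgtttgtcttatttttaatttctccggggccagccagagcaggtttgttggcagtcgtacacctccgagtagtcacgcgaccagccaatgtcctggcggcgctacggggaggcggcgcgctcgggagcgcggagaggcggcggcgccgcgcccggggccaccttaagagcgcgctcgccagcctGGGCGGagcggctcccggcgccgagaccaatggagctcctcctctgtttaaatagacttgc
The Cdk4 run held 4 E boxes and 1 GC box, the Cdk6 run 1 E box and no GC box, and the Cdkn1b run 1 GC box and no E box. Of all 32851 RefSeq windows of 300 bases, 7.15% held an E box and 35.7% a GC box. The FOXO motif GTAAACA, held by 3.65% of windows, was in none of the 3 runs and in none of their full windows. A search of both strands for 4 E2F motifs (TTTCGCGC, TTTCCCGC, TTTGGCGC and TTTGCCGC), of which any was held by 2.26% of windows, found TTTCCCGC in the windows of Cdk2 and of one Cdkn2a start only. These matches describe letters and not bound sites.

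Levels are given as RPM, the reads of a gene scaled to one common total per library. The libraries were made by SC3-seq, which reads the 3′ ends of transcripts, so RPM were compared between genes without division by transcript length. The steps between low RPM values imply 3031705 to 4644183 counted reads per library, and 3 reads correspond to 0.646 to 0.990 RPM. Germ cell markers were abundant in every library, with a sum over 12 markers of 3667 to 4395 RPM in GSCLC libraries and 3788 to 4515 RPM in GSC libraries. Markers of somatic testis cells were lower in GSCLC libraries for 2 lists, whose sums did not overlap between the kinds of library. The sum over Leydig cell markers was 3.99 to 8.44 RPM in GSCLC libraries, against 11.7 to 109 RPM in GSC libraries, with Cyp17a1 at 0 in all 12. The sum over markers of macrophages and endothelium was 7.28 to 19.2 RPM in GSCLC libraries, against 19.9 to 32.4 RPM in GSC libraries. Sertoli cell markers summed to 18.9 to 48.6 RPM in GSCLC libraries and 35.1 to 139 RPM in GSC libraries, with Amh at 0 in all 12, and fibroblast markers to 114 to 312 RPM in GSCLC libraries and 174 to 536 RPM in GSC libraries.

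**Figure D1:**
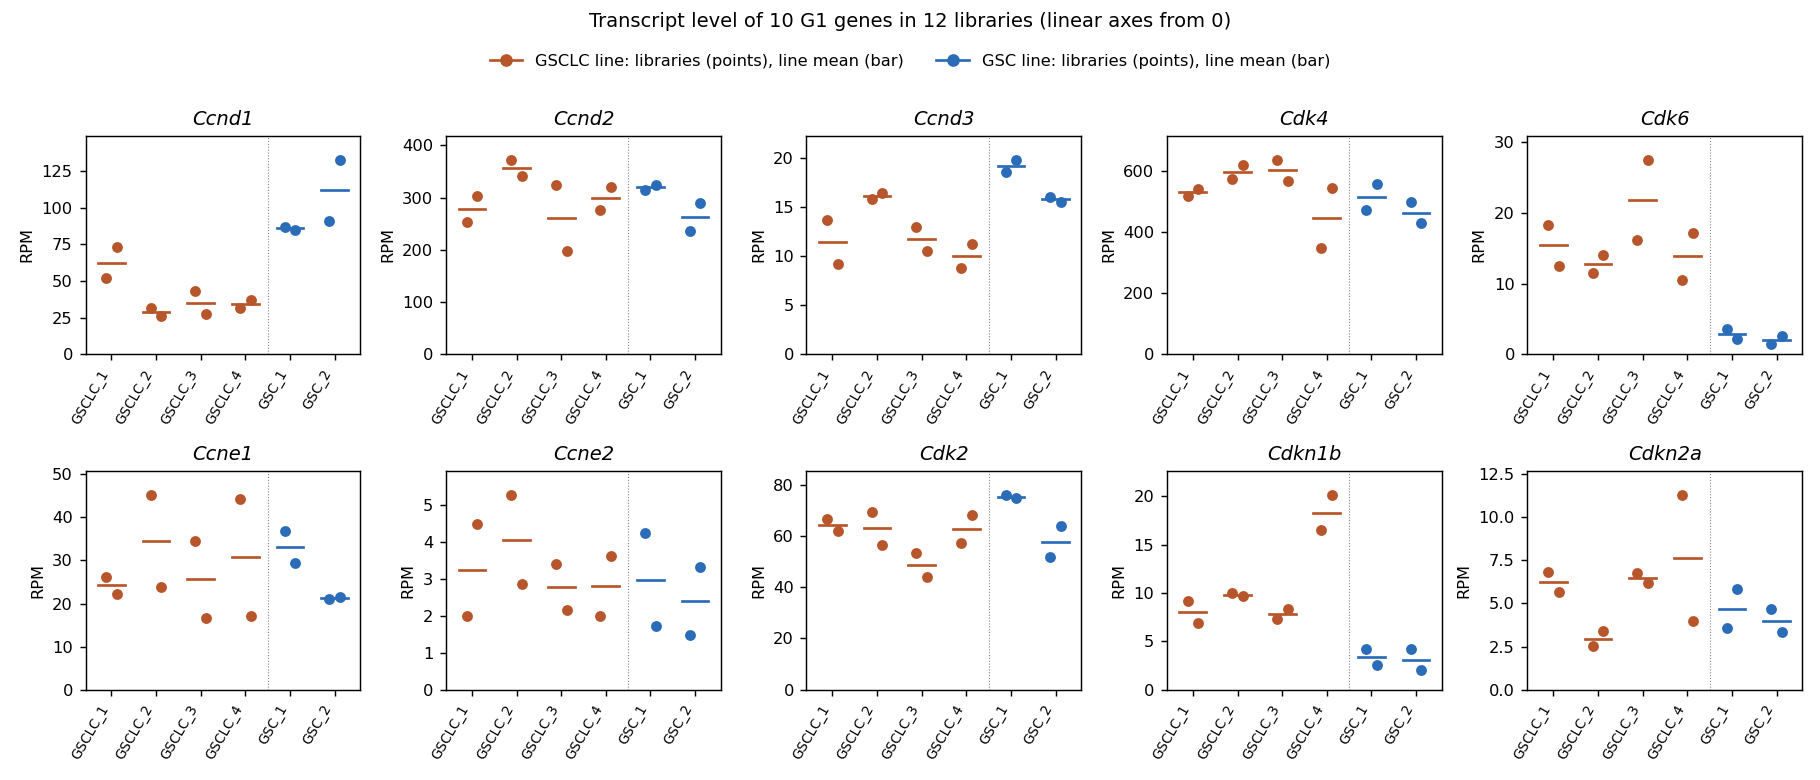
RPM of the 10 genes in each of the 12 libraries (points) with the mean of each line (bars), GSCLC lines left of GSC lines, on linear axes that start at 0. The 8 GSCLC libraries lie between 10.5 and 27.5 RPM for Cdk6 and between 6.86 and 20.1 RPM for Cdkn1b, above all 4 GSC libraries, and between 26.3 and 73.0 RPM for Ccnd1, below all 4 GSC libraries.

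Between the 4 GSCLC lines and the 2 GSC lines, Cdk6 and Cdkn1b rose and Ccnd1 fell, while the other D cyclins, Cdk4, the E cyclin Ccne1, Cdk2 and Cdkn2a did not pass the test. Of the 10 genes, 9 reached 5 RPM in 2 or more libraries and were tested, and 3 of these 9 were called, against 3.02% of the 11788 genes tested. Ccne2 reached 5 RPM in 1 library and was not tested. Tests were made with limma on log2(RPM + 1) of line means, 4 lines against 2, with p-values adjusted over all tested genes by the Benjamini-Hochberg method and a threshold of 0.05. Line means did not overlap for 3 of the 9 genes, against 28.6% of all tested genes, and library values did not overlap for the same 3, against 7.07%. Cdk6 and Cdkn1b reached 5 RPM in the 8 GSCLC libraries and in none of the GSC libraries, so they passed the filter through the lines in which they were high, and nothing is read from these counts. With no filter on low values Cdk6 was called (limma adjusted p = 0.0229), and Cdkn1b (0.142) and Ccnd1 (0.0806) were not. Cultures were sequenced in bulk, so that fewer cells of a type and less RNA per cell cannot be told apart.

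Cdk6 (gene ID 12571), the kinase partner of D cyclins alongside Cdk4, lies on chromosome 5 at 3341004 to 3531008 in GRCm38.p6. It had 18.3 and 12.5 RPM in the replicates of GSCLC_1, 11.5 and 14.1 RPM in GSCLC_2, 16.1 and 27.5 RPM in GSCLC_3, and 10.5 and 17.2 RPM in GSCLC_4, against 3.59 and 2.15 RPM in GSC_1 and 1.48 and 2.55 RPM in GSC_2. Every GSCLC library was thus above every GSC library, and the lowest GSCLC library stood well clear of the highest GSC library. The mean was 16.0 ± 4.04 RPM over GSCLC lines (SD, n = 4) and 2.44 ± 0.605 RPM over GSC lines (SD, n = 2), a ratio of 6.54. The log2 difference was 2.28 ± 0.28 (SE, 95% interval 1.66 to 2.90, limma adjusted p = 0.00225). The level in GSC lines rested on few reads, 37 over 4 libraries with 6 to 11 in each, against 470 reads over the 8 GSCLC libraries. In descending order the line means were 21.8 ± 8.05 RPM in GSCLC_3, 15.4 ± 4.05 in GSCLC_1, 13.8 ± 4.69 in GSCLC_4, 12.8 ± 1.81 in GSCLC_2, 2.87 ± 1.01 in GSC_1 and 2.01 ± 0.760 in GSC_2 (SD, 2 cultures each). The ranges of the 2 cultures overlapped between all neighbours in this order except GSCLC_2 and GSC_1. Without the line GSC_2 the log2 difference was 2.10 with adjusted p = 0.0603, where GSC_1 alone was taken to have the spread of the GSCLC lines.

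Cdkn1b (12576), which encodes the inhibitor p27Kip1, lies on chromosome 6 at 134920401 to 134925525. It had 9.13 and 6.86 RPM in GSCLC_1, 10.0 and 9.65 RPM in GSCLC_2, 7.35 and 8.36 RPM in GSCLC_3, and 16.5 and 20.1 RPM in GSCLC_4, against 4.24 and 2.58 RPM in GSC_1 and 4.18 and 2.04 RPM in GSC_2. Both cultures of GSCLC_4 stood above all others, and the remaining GSCLC libraries were still above every GSC library. The mean over GSCLC lines was 11.0 ± 4.97 RPM (SD, n = 4), against 3.26 ± 0.211 RPM over GSC lines (SD, n = 2), a ratio of 3.37. The log2 difference was 1.45 ± 0.35 (95% interval 0.69 to 2.21, limma adjusted p = 0.0480), on 322 reads in GSCLC and 50 in GSC libraries. In descending order the line means were 18.3 ± 2.54 RPM in GSCLC_4, 9.84 ± 0.266 in GSCLC_2, 7.99 ± 1.61 in GSCLC_1, 7.85 ± 0.711 in GSCLC_3, 3.41 ± 1.17 in GSC_1 and 3.11 ± 1.52 in GSC_2. GSCLC_1 and GSCLC_3 overlapped, as did GSC_1 and GSC_2, and the other neighbours did not. The call was close to the threshold and held in 9 of 29 alternative settings. It was lost when any 1 library of GSCLC_2, GSCLC_3 or GSCLC_4, GSCLC_1 replicate 1, or replicate 2 of either GSC line was left out, with adjusted p = 0.0540 to 0.0898 and log2 differences of 1.26 to 1.48. Sertoli cell markers summed to 18.9 to 48.6 RPM in GSCLC libraries, with 48.6 and 37.9 RPM in GSCLC_4. In GSC_1 and GSC_2 they summed to 92.2 and 139 RPM in replicate 1, and to 35.1 and 35.5 RPM in replicate 2. The part of Sertoli cells in the level of Cdkn1b was not tested.

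Ccnd1 (12443), which encodes cyclin D1, lies on chromosome 7 at 144929931 to 144939831. It had 51.9 and 73.0 RPM in GSCLC_1, 31.3 and 26.3 RPM in GSCLC_2, 43.3 and 27.2 RPM in GSCLC_3, and 31.3 and 37.3 RPM in GSCLC_4, against 86.7 and 84.8 RPM in GSC_1 and 91.1 and 132 RPM in GSC_2. All 8 GSCLC libraries were below the lowest GSC library, and GSCLC_1 was the nearest to it. Ccnd1 fell to 40.2 ± 15.1 RPM in GSCLC lines (SD, n = 4), against 98.8 ± 18.4 RPM in GSC lines (SD, n = 2), with a log2 difference of -1.33 ± 0.26 (95% interval -1.89 to -0.77, limma adjusted p = 0.0193). In descending order the line means were 112 ± 29.2 RPM in GSC_2, 85.8 ± 1.32 in GSC_1, 62.5 ± 14.9 in GSCLC_1, 35.2 ± 11.3 in GSCLC_3, 34.3 ± 4.21 in GSCLC_4 and 28.8 ± 3.53 in GSCLC_2. Cultures overlapped between GSCLC_3 and GSCLC_4 and between GSCLC_4 and GSCLC_2, and not between the other neighbours. The fall passed the test with each of the 12 libraries left out in turn, with log2 differences of -1.46 to -1.20. It did not pass with 1 GSC line alone as the comparison, at -1.51 with adjusted p = 0.118 without GSC_1 and -1.15 with adjusted p = 0.300 without GSC_2. With the libraries numbered 2 only, Ccnd1 differed by -1.48 (limma adjusted p = 0.0436), Cdk6 by 2.43 (0.00657) and Cdkn1b by 1.78 (0.0618). Among these libraries Leydig cell markers summed to 5.28 to 7.01 RPM in GSCLC lines and 11.7 to 12.1 RPM in GSC lines. Markers of macrophages and endothelium summed to 7.28 to 13.2 RPM in GSCLC lines and 21.7 to 32.4 RPM in GSC lines. Sertoli cell markers summed to 18.9 to 37.9 RPM in GSCLC lines and 35.1 to 35.5 RPM in GSC lines. Fibroblast markers summed to 192 to 312 RPM in GSCLC lines, 174 RPM in GSC_1 and 536 RPM in GSC_2. With the libraries numbered 1 only, Ccnd1 differed by -1.18 (adjusted p = 0.0365), Cdk6 by 2.13 (0.0245) and Cdkn1b by 1.12 (0.227). The part of the remaining difference in somatic markers in these results was not tested.

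Ccnd2 (12444), which encodes cyclin D2, lies on chromosome 6 at 127125162 to 127152188 and was the most abundant D cyclin in all 12 libraries. It had 254 and 302 RPM in GSCLC_1, 372 and 341 RPM in GSCLC_2, 325 and 197 RPM in GSCLC_3, and 277 and 321 RPM in GSCLC_4, against 315 and 324 RPM in GSC_1 and 236 and 290.4 RPM in GSC_2. The groups overlapped, and both the highest and the lowest library were GSCLC libraries. Means were 299 ± 41.6 RPM in GSCLC lines and 291 ± 40.1 RPM in GSC lines (SD, n = 4 and n = 2), with a log2 difference of 0.02 ± 0.15 (limma adjusted p = 0.961). The 95% interval of that difference was -0.30 to 0.34, and its sign turned in 8 of 30 alternative settings.

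Ccnd3 (12445), which encodes cyclin D3, lies on chromosome 17 at 47505051 to 47599689 and was the least abundant of the D cyclins. It had 13.7 and 9.22 RPM in GSCLC_1, 15.8 and 16.4 RPM in GSCLC_2, 13.0 and 10.5 RPM in GSCLC_3, and 8.77 and 11.2 RPM in GSCLC_4, against 18.6 and 19.8 RPM in GSC_1 and 16.0 and 15.6 RPM in GSC_2. GSCLC_2 reached the level of GSC_2, and the other 6 GSCLC libraries lay below all GSC libraries. The means of 12.3 ± 2.64 RPM in GSCLC lines and 17.5 ± 2.41 RPM in GSC lines differed by -0.49 ± 0.25 on the log2 scale, which did not pass the test (95% interval -1.03 to 0.04, limma adjusted p = 0.338).

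Ccnd2 made up a larger part of the D cyclin transcripts in each GSCLC library than in any GSC library, and the order of the 3 genes was the same in all 12 libraries: Ccnd2, Ccnd1, Ccnd3. The share of Ccnd1 in the summed RPM of the 3 genes was 11.6 ± 4.47% in GSCLC lines, against 24.4 ± 5.95% in GSC lines (SD, n = 4 and n = 2). The share of Ccnd2 was 84.9 ± 4.28% in GSCLC lines, against 71.3 ± 5.61% in GSC lines, and that of Ccnd3 was 3.50 ± 0.507% in GSCLC lines, against 4.28 ± 0.338% in GSC lines. Library by library, Ccnd2 took 78.6% to 88.8% of the sum in GSCLC libraries and 66.2% to 75.6% in GSC libraries, with no overlap. The sum of the D cyclins was 351 ± 38.5 RPM in GSCLC lines and 408 ± 24.2 RPM in GSC lines. Ccnd2 stood 4.45 to 12.4 times above Ccnd1 in GSCLC lines and 2.35 to 3.73 times in GSC lines. The log2 ratio of Ccnd2 to Ccnd1 was higher by 1.35 in GSCLC lines, and that of Ccnd3 to Ccnd2 lower by 0.52, each with p = 0.0667 in a two-sided exact permutation test of 4 lines against 2. With 15 ways to split 6 lines no smaller p can arise, so no ratio could pass, and adjusted over 5 ratios it was 0.111. The log2 ratio of Ccnd3 to Ccnd1 differed by 0.84 (exact permutation p = 0.267, adjusted 0.333).

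**Figure D2:**
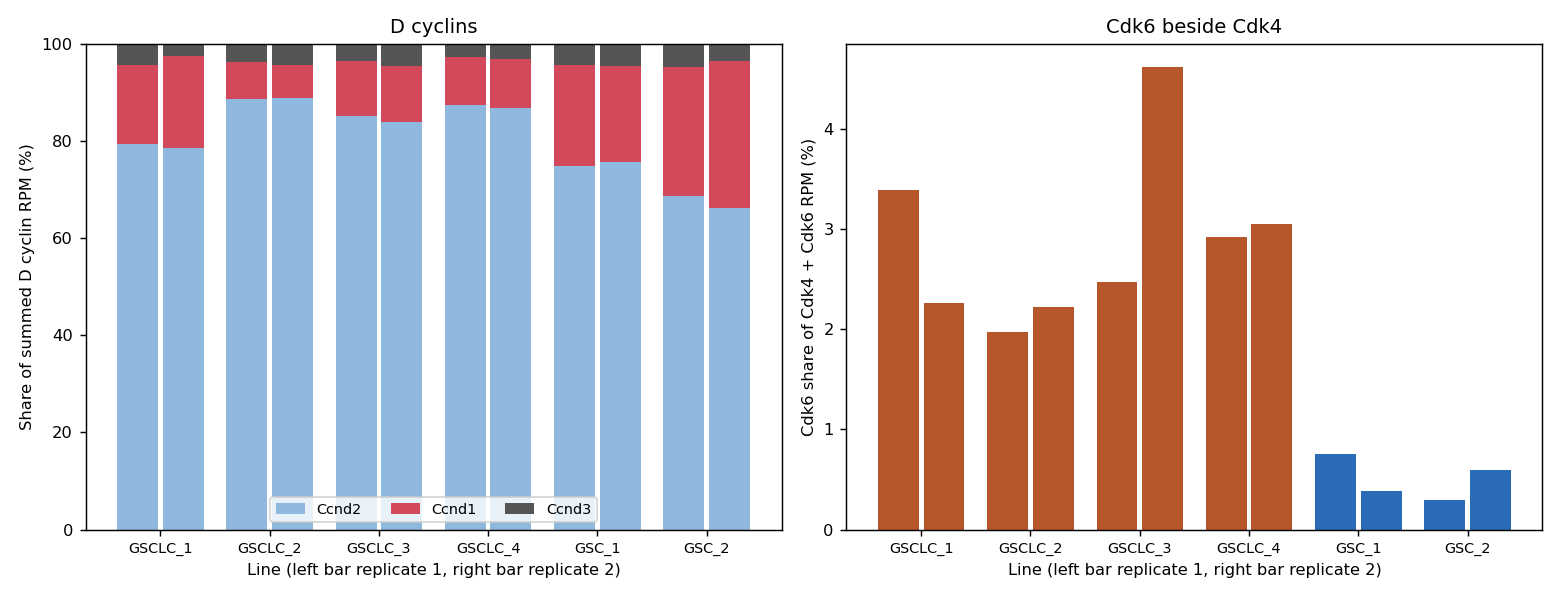
Left, share of each D cyclin in their summed RPM (%), and right, share of Cdk6 in the summed RPM of Cdk4 and Cdk6 (%), in each of the 12 libraries, with GSCLC lines left of GSC lines. Ccnd2 takes 78.6% to 88.8% in GSCLC libraries and 66.2% to 75.6% in GSC libraries, and Cdk6 takes 1.97% to 4.61% in GSCLC libraries and 0.295% to 0.754% in GSC libraries.

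Cdk4 (12567), the other kinase of D cyclins, lies on chromosome 10 at 127063535 to 127067288 and was far more abundant than Cdk6 in every library. It had 520.1 and 542 RPM in GSCLC_1, 574 and 621 RPM in GSCLC_2, 637 and 568 RPM in GSCLC_3, and 349 and 546 RPM in GSCLC_4, against 472 and 559 RPM in GSC_1 and 499 and 429.9 RPM in GSC_2. The groups overlapped, with GSCLC_4 replicate 1 the lowest of all libraries. The means of 545 ± 72.6 RPM in GSCLC lines and 489.8 ± 36.0 RPM in GSC lines (SD, n = 4 and n = 2) differed by 0.14 ± 0.14 on the log2 scale (95% interval -0.16 to 0.44, limma adjusted p = 0.659). Cdk6 made up 2.85 ± 0.576% of the summed RPM of both kinases in GSCLC lines, against 0.493 ± 0.0862% in GSC lines, and the ranges over libraries did not overlap. Cdk4 thus exceeded Cdk6 by a mean factor of 35.3 ± 8.09 in GSCLC lines, against 205 ± 36.0 in GSC lines, and there was no switch of the leading kinase in any library. The log2 ratio of Cdk6 to Cdk4 was higher by 2.14 in GSCLC lines (exact permutation p = 0.0667, the smallest possible, adjusted 0.111).

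The E cyclins and Cdk2 overlapped between the kinds of line. Ccne1 (12447), which encodes cyclin E1, had 26.2 and 22.2 RPM in GSCLC_1, 45.1 and 23.7 RPM in GSCLC_2, 34.5 and 16.7 RPM in GSCLC_3, and 44.3 and 17.2 RPM in GSCLC_4, against 36.8 and 29.5 RPM in GSC_1 and 21.2 and 21.4 RPM in GSC_2. Replicate 1 was the higher culture in all 4 GSCLC lines, and the gap between cultures of GSCLC_4 (27.2 RPM) exceeded the difference between any pair of line means. The group means of 28.8 ± 4.71 RPM in GSCLC lines and 27.2 ± 8.39 RPM in GSC lines differed by 0.02 ± 0.22 on the log2 scale (95% interval -0.46 to 0.50, limma adjusted p = 0.975), and the sign of this difference turned in 8 of 30 alternative settings. Ccne2 (12448), which encodes cyclin E2, was near the lower limit of measurement in every line. It had 2.00 and 4.49 RPM in GSCLC_1, 5.27 and 2.87 RPM in GSCLC_2, 3.39 and 2.16 RPM in GSCLC_3, and 2.00 and 3.63 RPM in GSCLC_4, against 4.24 and 1.72 RPM in GSC_1 and 1.48 and 3.32 RPM in GSC_2, on 6 to 21 reads in each library. The log2 ratio of Ccne2 to Ccne1 differed by 0.19 between GSCLC and GSC lines (exact permutation p = 0.400), a difference that turned its sign in 4 of 24 settings.

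Cdk2 (12566), the kinase partner of E cyclins, had 66.8 and 62.2 RPM in GSCLC_1, 69.4 and 56.6 RPM in GSCLC_2, 53.4 and 43.9 RPM in GSCLC_3, and 57.4 and 68.3 RPM in GSCLC_4, against 75.9 and 74.7 RPM in GSC_1 and 51.7 and 64.0 RPM in GSC_2. GSC_1 was the highest line and GSCLC_3 the lowest. The means of 59.8 ± 7.41 RPM in GSCLC lines and 66.6 ± 12.4 RPM in GSC lines differed by -0.15 ± 0.17 on the log2 scale (95% interval -0.53 to 0.22, limma adjusted p = 0.704), and the sign turned to 0.04 without GSC_1. Cdkn2a (12578) had 6.85 and 5.67 RPM in GSCLC_1, 2.51 and 3.39 RPM in GSCLC_2, 6.78 and 6.20 RPM in GSCLC_3, and 11.3 and 3.96 RPM in GSCLC_4, against 3.59 and 5.81 RPM in GSC_1 and 4.68 and 3.32 RPM in GSC_2. The groups overlapped, and GSCLC_2 was the lowest of the 6 lines. The means of 5.83 ± 2.01 RPM in GSCLC lines and 4.35 ± 0.497 RPM in GSC lines differed by 0.28 ± 0.36 (95% interval -0.50 to 1.06, limma adjusted p = 0.741). Transcripts of p16Ink4a and p19Arf begin at RefSeq starts 12427 bases apart, but the deposited table holds 1 row for Cdkn2a, which does not tell them apart.

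**Figure D3:**
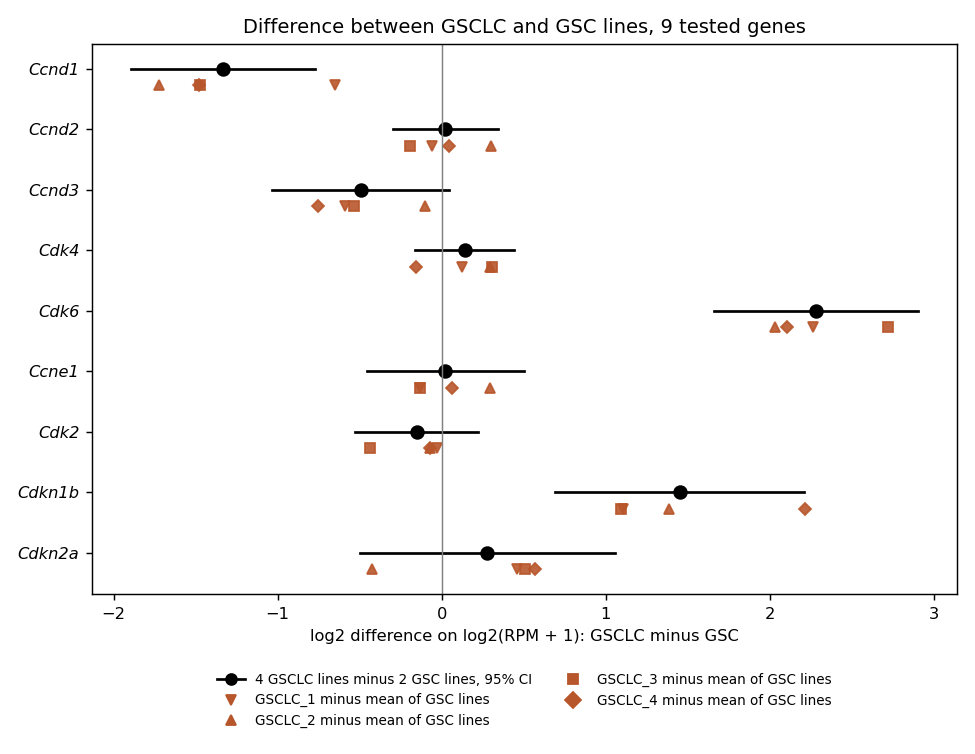
Difference in log2(RPM + 1) for the 9 tested genes: GSCLC lines minus GSC lines with the 95% interval (black), and each GSCLC line minus the mean of the GSC lines (coloured marks below it). Intervals for Cdk6 (1.66 to 2.90), Cdkn1b (0.69 to 2.21) and Ccnd1 (-1.89 to -0.77) lie apart from 0, and those of the other 6 genes include it.

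Each GSCLC line was next set against the mean of both GSC lines with limma on single libraries. These comparisons share the GSC libraries, and their p-values rest on the spread between cultures of 1 line. As Cdk6 and Cdkn1b passed the filter through GSCLC libraries only, nothing is read from the counts of genes called in each line. In GSCLC_1, 2 of the 9 genes were called, against 6.94% of all tested genes: Cdk6 with a log2 difference of 2.27 ± 0.33 and Cdkn1b with 1.10 ± 0.32 (limma adjusted p = 0.0437), while Ccnd1 differed by -0.65 ± 0.21 without passing (limma adjusted p = 0.0630). The count in GSCLC_1 was 1 when any of GSC_1 replicate 2, GSC_2 replicate 2, either culture of GSCLC_1 or GSCLC_2, or GSCLC_4 replicate 2 was left out. In GSCLC_2, 3 were called, against 11.7% of genes, with Cdk6 at 2.03 ± 0.33, Cdkn1b at 1.39 ± 0.32 and Ccnd1 at -1.72 ± 0.21. In GSCLC_3, the same 3 were called, against 14.3%, with Cdk6 at 2.72 ± 0.33, Cdkn1b at 1.09 ± 0.32 and Ccnd1 at -1.47 ± 0.21. In GSCLC_4, these 3 and Ccnd3 were called, against 16.0%, with Cdk6 at 2.11 ± 0.33, Cdkn1b at 2.21 ± 0.32, Ccnd1 at -1.48 ± 0.21 and Ccnd3 at -0.75 ± 0.25 (limma adjusted p = 0.0463).

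Over all 6 lines, a moderated F test called Ccnd1 (adjusted p = 2.7e-05), Cdk6 (4.0e-05) and Cdkn1b (0.00143), 3 of 9, against 20.0% of genes. Nothing is read from that count either, because Cdk6 and Cdkn1b passed the filter through GSCLC libraries only. Among the 4 GSCLC lines alone, a test chosen after the values were seen, Ccnd1 was called (F = 7.84, limma adjusted p = 0.0224), 1 of 9, against 9.14% of genes, with GSCLC_1 the highest of the 4. That call was lost without GSCLC_1 replicate 2 or GSCLC_2 replicate 2, with no filter on low values and with no variance trend. Cdkn1b, highest in GSCLC_4, did not pass among these lines (limma adjusted p = 0.117), nor did Cdk6 (0.495).

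Between GSCLC lines of condition 2 and of condition 1, none of the 9 genes was called by limma, against 0% of the 11788 genes, where 0 were called and 552 had an unadjusted p under 0.05. The smallest adjusted p over all genes was 0.933, and 2 lines stood against 2. Cdk4 was the only one of the 9 genes with an unadjusted p under 0.05, with means of 600.2 ± 3.87 RPM in condition 2 and 489 ± 58.8 RPM in condition 1 (SD, n = 2 each), a log2 difference of 0.32 ± 0.13 (limma adjusted p = 0.933). Ccnd1 averaged 32.0 ± 4.52 RPM in condition 2 and 48.4 ± 19.9 RPM in condition 1, a difference of -0.53 ± 0.26 that did not pass (95% interval -1.12 to 0.05). The level in condition 1 joined GSCLC_1 at 62.5 RPM with GSCLC_4 at 34.3 RPM. Cdk6 averaged 17.3 ± 6.36 RPM in condition 2 and 14.6 ± 1.10 RPM in condition 1 (log2 difference 0.19, 95% interval -0.56 to 0.94). Cdkn1b averaged 8.85 ± 1.41 RPM in condition 2 and 13.2 ± 7.31 RPM in condition 1 (log2 difference -0.42, 95% interval -1.31 to 0.47).

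The genes of the same chromosome were used to set the 3 changes beside their surroundings. Median log2 differences of the 64 tested genes within 5 Mb of Ccnd1 lay between -0.22 and 0.01 in the 4 GSCLC lines, where Ccnd1 itself lay between -1.72 and -0.65. For the 18 tested genes around Cdk6 the medians lay between -0.09 and 0.27, where Cdk6 lay between 2.03 and 2.72. Chromosome 6, which carries Ccnd2 and Cdkn1b, stood apart in 2 lines: the median of its 541 tested genes was 0.31 in GSCLC_2 and 0.38 in GSCLC_4, against 0.03 in GSCLC_1 and -0.10 in GSCLC_3. Around Cdkn1b, 27 genes had medians of 0.52 in GSCLC_2 and 0.54 in GSCLC_4, and of 0.04 in GSCLC_1 and -0.10 in GSCLC_3. Cdkn1b was higher by 1.10 and 1.09 in GSCLC_1 and GSCLC_3, where its neighbours were not, and by 1.39 and 2.21 in GSCLC_2 and GSCLC_4. Around Ccnd2, 57 genes had medians of -0.06, 0.46, -0.16 and 0.36 in GSCLC_1 to GSCLC_4, and Ccnd2 had -0.06, 0.30, -0.19 and 0.04. Copy number was not measured, and how much of chromosome 6 the difference spans was not examined. The part of that difference in the levels of Ccnd2 and Cdkn1b was not tested.

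**Figure D4:**
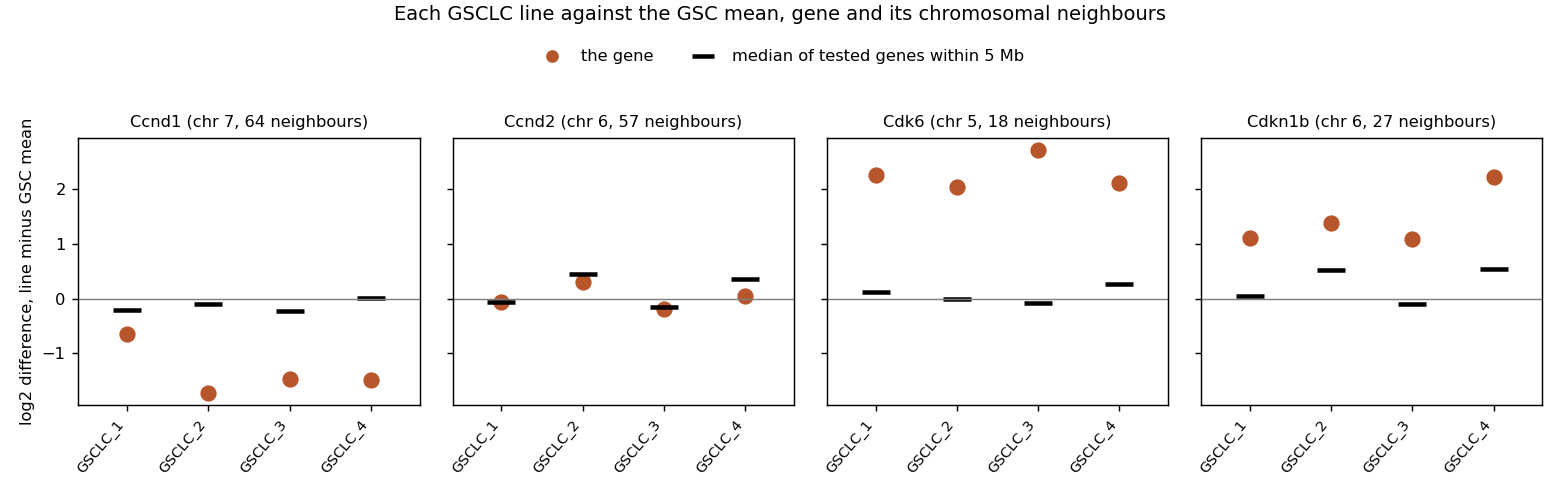
Difference in log2(RPM + 1) of each GSCLC line minus the GSC mean, for 4 genes (circles) and for the median of the tested genes within 5 Mb on the same chromosome (bars). Cdk6, Cdkn1b and Ccnd1 lie away from their neighbours in each of the 4 lines, whereas Ccnd2 lies close to its neighbours in GSCLC_1 (-0.06 for both) and GSCLC_3 (-0.19 and -0.16).

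At the 3′ end, where these reads fall, 4 of the 10 genes meet a gene of the opposite strand within the last 300 annotated bases, and whether counting used the strand is not stated in the labels. Ccnd1 meets Oraov1, which had 6.22 to 16.3 RPM in GSCLC libraries and 10.4 to 11.6 RPM in GSC libraries. The lowest level of Ccnd1 was 26.3 RPM in GSCLC libraries and 84.8 RPM in GSC libraries, so the margin was narrower in GSCLC libraries. The part of Oraov1 reads in the level of Ccnd1 was not tested. Cdk4 meets Tspan31, at 57.9 to 83.7 RPM in GSCLC libraries and 88.3 to 100.0 RPM in GSC libraries. Ccnd3 meets Bysl, at 167 to 198 RPM in GSCLC libraries and 181 to 209 RPM in GSC libraries, above the level of Ccnd3. Ccne2 meets Ints8, at 78.0 to 127 RPM in GSCLC libraries and 72.8 to 108 RPM in GSC libraries, also above the level of Ccne2. Neither Cdk6 nor Cdkn1b meets another gene there.

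The rest of the G1 pathway was read from 4 lists, whose members were chosen with earlier results of these data known. Of 5 other inhibitors, 4 were tested, and 1 fell, 0 rose and 3 did not pass, with a median log2 difference of -0.06 against -0.01 over all tested genes, of which 3.02% were called and 1.81% fell. The same shares stand beside the counts of the other 3 lists. The one that fell was Cdkn1a, which encodes p21Cip1, a p53 target, at 44.8 ± 6.15 RPM in GSCLC lines and 82.0 ± 27.2 RPM in GSC lines (log2 difference -0.83 ± 0.20, limma adjusted p = 0.0496). The libraries of the 2 kinds overlapped slightly for Cdkn1a, at 30.7 to 57.4 RPM in GSCLC and 55.9 to 125 RPM in GSC libraries. Its call was close to the threshold and was not followed over the alternative settings. Cdkn1c, another of these inhibitors, differed by more and in the other direction, by 0.84 ± 0.23, without passing (limma adjusted p = 0.0773). Of 13 genes for pocket proteins and E2F factors, 12 were tested and 0 passed (median 0.09). The largest differences there were those of E2f7, a repressor of E2F targets, with 0.56 ± 0.17 (limma adjusted p = 0.119), and of Tfdp2, a partner of E2F factors, with 0.41 ± 0.17 (0.242). Of 16 further regulators of the step into S phase, 13 were tested and 0 passed (median 0.10). Myc, a transcription factor that promotes entry into the cycle, had the largest difference, 0.87 ± 0.33 (limma adjusted p = 0.201), and Mnat1, a subunit of the CDK-activating kinase, followed with 0.64 ± 0.17 (0.0630). Of 35 targets of E2F, such as helicase subunits and enzymes of nucleotide synthesis, all 35 were tested and 0 passed (median 0.01), with 18 above 0 and 17 below. Dut, which encodes dUTPase, had 0.49 ± 0.13 (limma adjusted p = 0.0804), and Mcm10, a replication initiation factor, had -0.38 ± 0.15 (0.205).

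The tested genes with a mean of at least 20 RPM over the libraries whose log2 values ran most like those of each D cyclin over the 12 libraries were found by Pearson's r, given without a test because replicates of a line and the kind of line are shared. For Ccnd1 they included Creg1 (r = 0.953) and Drosha (0.933). For Ccnd2 they included Atad5 (r = 0.872) and Slc35b1 (0.851). For Ccnd3 they were Ube2v1 (r = 0.894), Yap1 (0.890) and Hax1 (0.878). Creg1 and Drosha had lower means in GSCLC lines, with log2 differences of -0.76 and -0.48, and neither passed the test (limma adjusted p = 0.150 for Creg1 and 0.114 for Drosha).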

How the data were processed

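The authors deposited 1 table of RPM values, reads of a gene scaled to one total per library, for 26219 genes in 12 libraries. Per the labels' protocols, libraries were SC3-seq, with cDNA amplified from total RNA and read by SOLiD sequencing. The submitters' processing notes name the build mm10 (GRCm38) and, with no role or setting, TopHat 1.4.1, Cufflinks 2.2.0 and cutadapt 1.3. Between 99.7% and 99.8% of the values above 0 in a library were whole multiples, within 0.1, of the value of 1 read. Because this was not complete, a count model was not the main test. Reads were amplified and carry no molecular identifiers, so read numbers cover counting error only. Columns left unused numbered 0.

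The log2(RPM + 1) values were averaged over the 2 cultures of a line. Fold changes on this scale understate those of low genes. The 11788 genes that reached 5 RPM in 2 or more libraries were fitted with limma 3.58.1 in R 4.3.3, with a mean-variance trend and two-sided p-values adjusted by the Benjamini-Hochberg method, at a threshold of 0.05. GSCLC lines were compared with GSC lines as 4 against 2. Conditions were compared as 2 lines against 2 in a fit that kept the GSC lines. Single lines and differences among lines were tested on single libraries. Ratios were tested by exact permutation of lines. The fits were also run on simulated data with known changes, whose outcome is not reported here, so nothing is read from that run.

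The 10 genes, the lists and the tests were chosen with earlier results of these data known. All 10 genes are named, and from each list those past the threshold or, where none passed, the 2 with the largest absolute log2 difference. Cdkn1c is named besides, as its difference was larger than that of Cdkn1a. For each D cyclin the 3 genes of highest Pearson r were taken, of which some are not reported here. Alternatives covered the pseudocount, scaling, the filter, the variance trend, each library, line or replicate number left out, single libraries with a line correlation, and the replicate block. Voom on implied reads and the test among the 4 GSCLC lines were added after seeing the data.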

Additional observations from a re-analysis of the deposited data

Results flagged for a closer look

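In 30 groups of 4 to 8 values of these genes, 4 held a value far from the rest by Dixon's test at the 95% level. Chance gives this in about 1 of 20 groups of independent values. That rate does not hold here, as groups join cultures of 1 line, and line means reuse the same libraries. Ccnd1 was 132 RPM in GSC_2 replicate 2, against 91.1 RPM in the next of the 4 GSC libraries. Cdk4 was 349 RPM in GSCLC_4 replicate 1, against 520.1 RPM in the next lowest of the 8 GSCLC libraries. Cdk6 was 27.5 RPM in GSCLC_3 replicate 2, against 18.3 RPM in the next highest of the 8 GSCLC libraries. The line mean of Cdk2 was 48.7 RPM in GSCLC_3, against 62.8 RPM in the next lowest of the 4 GSCLC lines.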

How the results depend on the processing

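Over its alternatives, Cdk6 passed in 28 of 29, with log2 differences of 1.46 to 2.69 between GSCLC and GSC lines, Ccnd1 in 26 of 30 (-1.56 to -1.15; also not without the variance trend, adjusted p = 0.0799) and Cdkn1b in 9 of 29 (0.92 to 1.78, adjusted p = 0.00938 to 0.362). Their direction held in every one of these. The cause of the changes listed here was not tested, apart from fewer lines, libraries or genes in a fit. Cdk6 in GSC libraries rests on 37 reads and Cdkn1b on 50, which limits their ratios.

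Of the 9 genes, 3 were called between GSCLC and GSC lines in the main setting. The count was 1 with no filter, with the filter of 20 RPM (which leaves Cdk6 and Cdkn1b untested) and with no trend. It was 2 with a pseudocount of 5, with voom on implied reads, without GSCLC_1, GSCLC_2 or GSCLC_4, and with the libraries numbered 1 or 2 only. With 1 library left out it was 2 or 3, as Cdkn1b passed in 3 of 12 such fits. Log2 differences for Cdk6, Cdkn1b and Ccnd1 were 2.46, 1.51 and -1.51 without GSC_1, and 2.10, 1.39 and -1.15 without GSC_2. Genes called numbered 356, against 142 with no filter, 212 with the filter of 20 RPM, 41 without GSC_1, 13 without GSC_2, 211 without GSCLC_1, 209 without GSCLC_2, 114 and 178 with the libraries numbered 1 or 2 only, 645 on single libraries, and 199 to 403 with 1 library left out. Ccnd2 turned to -0.000345 with quantile normalisation, -0.122 without GSC_2, -0.0703 without GSCLC_2, -0.111 with libraries numbered 2 only, and ranged from -0.0676 to 0.112 with 1 library left out. Ccne1 turned to -0.281 without GSC_2, -0.0682 without GSCLC_2, -0.335 with libraries numbered 2 only, and ranged from -0.14 to 0.19. Cdk2 turned to 0.0396 without GSC_1. The Ccne2 to Ccne1 ratio turned to -0.00673 without GSC_1 and -0.24 with libraries numbered 1 only, and ranged from -0.0500 to 0.436.

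For single lines, the members called in GSCLC_1 were 1 with a pseudocount of 5 or no filter, 0 with the filter of 20 RPM and 1 to 3 with 1 library left out, and 1 with the filter of 20 RPM in GSCLC_2, GSCLC_3 and GSCLC_4. Over 6 lines, 1181 genes were called with no filter and 1334 with no trend, against 2362, and 1 of the 9 with the filter of 20 RPM. Among the 4 GSCLC lines, 458 genes were called with no filter, 461 with no trend and 710 to 1162 with 1 library left out, against 1077; of the 9 genes, 2 with a pseudocount of 5, 0 with no filter or no trend, and 0 to 2 with 1 library left out. Between conditions, 1 gene was called without GSCLC_1, 11 without GSCLC_2, 1 without GSCLC_3 and 1 with libraries numbered 2 only. Condition 2 minus condition 1 turned for Cdk6 to -0.15 without GSCLC_3 and -0.0245 with libraries numbered 1 only, for Ccnd2 to -0.18 without GSCLC_2 and -0.26 with libraries numbered 2 only (-0.12 to 0.24 with 1 library left out), for Cdkn1b to 0.13 without GSCLC_4, and for Ccne1 to -0.10 without GSCLC_2 (-0.21 to 0.45).

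Deviations of same-numbered libraries correlated at -0.122 to 0.11 over 15 pairs of lines, above 0.1 in 2. Such low correlations cannot show whether a small set of genes followed the replicate number. The Leydig cell marker sum was higher in the first culture for GSC_1 (75.6 against 12.1 RPM) and for GSC_2 (109 against 11.7 RPM). It was also higher there in GSCLC_2 and GSCLC_4, and lower in GSCLC_1 and GSCLC_3. The part of the replicate number in these sums was not tested. With the replicate block on single libraries, 592 genes and the same number of these genes, 3, were called between GSCLC and GSC lines.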
